A study of Homo sapiens with 9 samples.

Results

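The genes described here, 8 of the 33861 genes in the table, encode transcription factors of the liver and of the endoderm from which it forms. They are HNF4A, HNF4G, FOXA1, FOXA2, FOXA3, GATA6, ONECUT2 and PROX1. They were taken by name, though the choice was made with earlier results of these data known. Of the 8 genes, 7 were among the 20988 that passed edgeR's filter on low counts. PROX1 did not pass. RNA was sequenced from 9 libraries of HCT116, a human colorectal carcinoma line, in 3 groups of 3. The NC group received neither factor, the Activin group received 100 ng/mL activin A for 5 days, and the Activin+HGF group received 100 ng/mL activin A for 5 days and then 20 ng/mL hepatocyte growth factor (HGF) for 5 days. The sequence of activin and HGF is used in culture to lead stem cells through endoderm to liver progenitors, and the libraries allow the question of whether transcription factors of that route change in these cancer cells. The time for which the NC cells were cultured, and whether libraries of a group came from separate cultures, are not given in the sources used here, so p-values measure the spread between these libraries, which may be technical. Activin+HGF also differs from Activin by 5 more days of treatment, and no group received HGF alone. HGF and time therefore cannot be told apart wherever these groups are compared below. Every library came from 1 cell line, and in bulk RNA fewer cells with a transcript and less of it per cell cannot be told apart.

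HNF4A is a nuclear receptor that keeps hepatocyte genes active and also works in the intestinal epithelium, and HNF4G is its paralogue, known mainly from the gut. The FOXA proteins are forkhead factors that bind closed chromatin in the endoderm, and GATA6, a zinc finger factor, acts with them there and later in the gut and biliary tract. ONECUT2, a homeodomain factor with a cut domain, takes part in the development of hepatoblasts and bile ducts, while PROX1, also a homeodomain protein, marks hepatoblasts and lymphatic endothelium.

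The RefSeq table of start sites held windows for 5 of the genes, FOXA1, FOXA3, GATA6, HNF4A and ONECUT2. The 250 bases before the start were searched on both strands for the motifs CAAAGTCCA of HNF4, TGTTTAC of FOXA factors, AGATAA of GATA factors, ATCGAT of ONECUT factors, GTCTAGAC of SMAD proteins and AATCCACA of FOXH1, a partner of SMAD proteins. The window of GATA6 is shown because GATA6 was the gene that differed between the groups, and that of the upstream of the 2 start sites of HNF4A because no other window held a motif. Coordinates are those of GRCh38.p14 on the plus strand, chr18:22169339-22169588 for GATA6 and chr20:44355449-44355698 for HNF4A, and capitals mark a motif.
GATA6: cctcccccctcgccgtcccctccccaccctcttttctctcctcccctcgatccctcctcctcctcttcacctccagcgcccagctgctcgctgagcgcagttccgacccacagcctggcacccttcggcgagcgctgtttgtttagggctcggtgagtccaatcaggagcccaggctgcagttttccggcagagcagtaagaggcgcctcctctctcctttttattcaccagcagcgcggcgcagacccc
HNF4A upstream start: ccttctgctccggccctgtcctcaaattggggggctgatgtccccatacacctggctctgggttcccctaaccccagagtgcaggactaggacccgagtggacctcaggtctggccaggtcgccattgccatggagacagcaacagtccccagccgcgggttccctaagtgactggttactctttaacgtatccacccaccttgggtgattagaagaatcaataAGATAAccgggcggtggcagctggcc
The GATA6 window held none of the 6 motifs. Before the upstream start of HNF4A, AGATAA lay from base -26 to base -21, and 9.17% of all 35116 windows held it. It overlapped no other motif. The windows of GATA6, FOXA1, FOXA3 and ONECUT2 were rich in G and C, from 64.4% to 75.2%, and those of HNF4A had 58.4% and 58%, beside a median of 58% over all windows.

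The counts of a library summed to between 57453977 and 77016167. In 2 libraries many genes stood away from the other libraries of their group: 10.6% of 13056 genes were at least 2-fold off in Activin replicate 2 and 12.8% in Activin+HGF replicate 1, against 2.34% to 5.78% in the others. Activin replicate 2 was low in transcripts poor in G and C and high in those rich in them, with median log2 differences of -0.50 and 0.56 for transcripts under 45% and over 55%, whereas Activin+HGF replicate 1 showed no such trend. Where a call named below is lost without either library, that is stated beside it. Of 8 markers of colorectal epithelium, 6 had a mean FPKM of at least 1 in every group, led by the keratin gene KRT19 with 274 to 377, and the summed FPKM of a library was 666 to 720 in NC, 555 to 759 in Activin and 645 to 875 in Activin+HGF. The brush border gene VIL1 was near 0 in all groups and LGALS4 did not exceed 0.28 in any library. LGALS4 had 0, 0 and 8 counts in NC, 47, 48 and 34 in Activin and 0, 12 and 0 in Activin+HGF, with no call. Of the leukocyte markers PTPRC and CD3E stayed at or under an FPKM of 0.05, while CD68, a lysosomal protein, had means of 0.807, 5.93 and 6.65 FPKM in NC, Activin and Activin+HGF. Among endothelial markers PECAM1, CDH5, VWF and KDR, no group mean exceeded 0.177 FPKM, and of the 5 fibroblast markers in the table only COL1A1, with 2.35 to 5.12, had a mean of at least 1. Of these marker genes CD68 and LYZ were called higher in both treated groups than in NC and COL3A1 lower in both. LYZ, with 16, 8 and 19 counts in NC, passed the filter on low counts through the treated libraries, so its calls are no support. COL1A1 was called higher with activin, and COL3A1 and EPCAM in Activin+HGF against Activin. Without Activin+HGF replicate 1, LYZ (adjusted p = 0.131 in edgeR) and COL3A1 (0.0587) were no longer called against NC, nor EPCAM against Activin (log2 fold change 0.89). Their part in the results below was not tested.

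The levels of the 8 genes were low, and FPKM is per length and so allows genes to be set side by side. FOXA3 and GATA6 had the highest means in every group, ONECUT2 had means around 1, HNF4A, HNF4G and FOXA1 lay between 0.12 and 0.88 in every library, and FOXA2 and PROX1 were at or near 0. In NC the order of means was FOXA3 with 3.81 ± 0.391 FPKM (SD, n = 3), GATA6 with 1.45 ± 0.215, ONECUT2 with 1.06 ± 0.165, HNF4G with 0.38 ± 0.115, HNF4A with 0.36 ± 0.06 and FOXA1 with 0.323 ± 0.0757. The libraries of GATA6 and ONECUT2 overlapped, as did those of HNF4G with HNF4A and of HNF4A with FOXA1, while FOXA3 stood clear of GATA6, ONECUT2 of HNF4G and FOXA1 of FOXA2. FOXA3 exceeded 78.6% of all genes in NC and HNF4A 55.4%. In Activin the order began with GATA6 at 3.72 ± 0.318 and FOXA3 at 3.65 ± 0.502, which overlapped, and both stood clear of ONECUT2 at 1.21 ± 0.604. In Activin+HGF it began with GATA6 at 2.89 ± 0.896, FOXA3 at 2.3 ± 1.44 and ONECUT2 at 1.05 ± 0.35, each overlapping the next, and FOXA1 had moved above HNF4A with no overlap between their libraries.

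**Figure D1:**
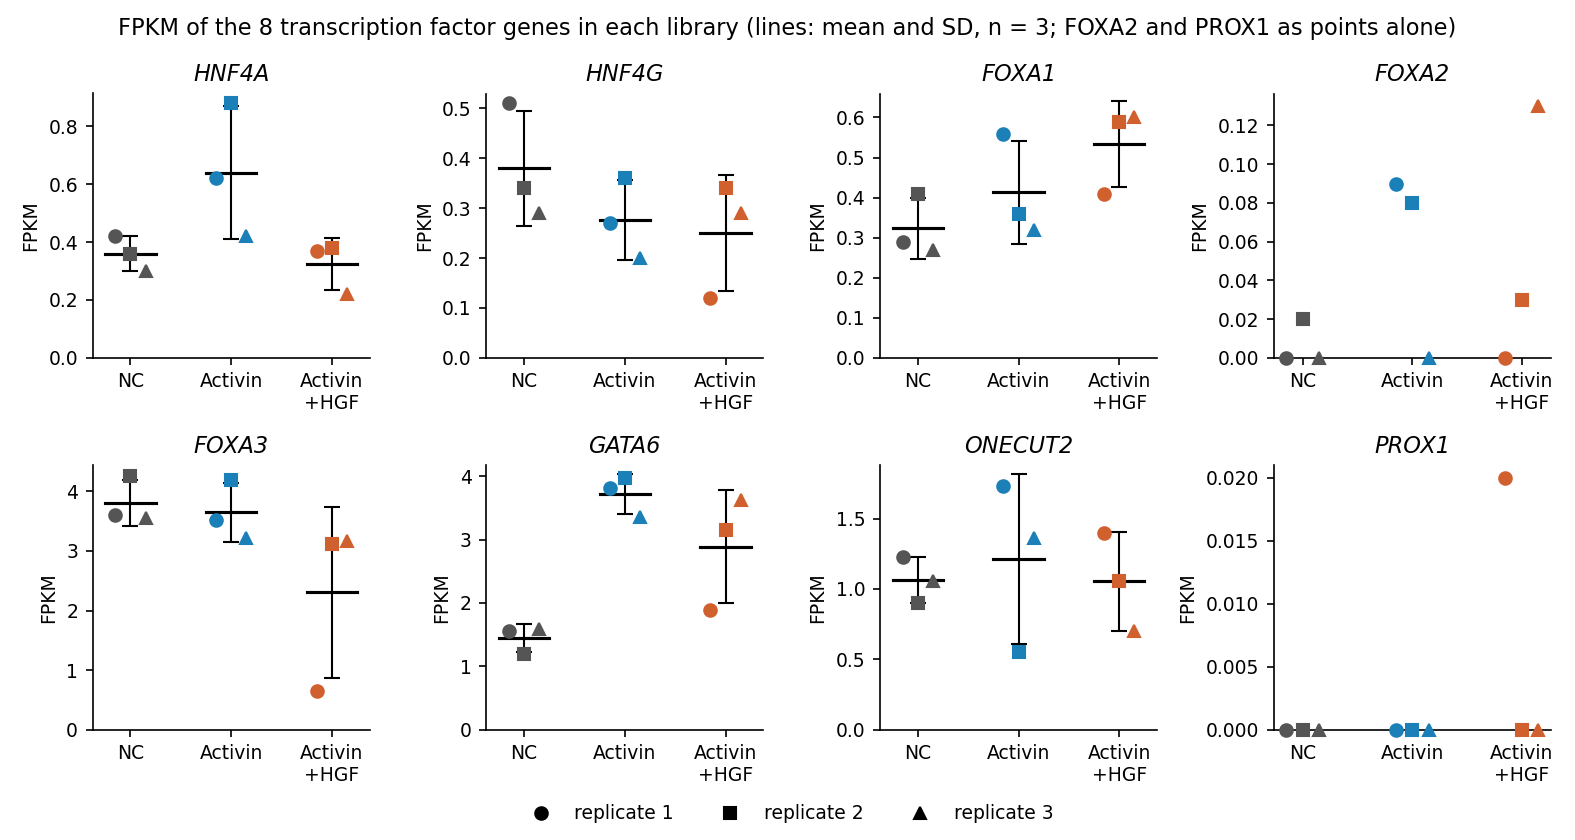
FPKM of each of the 8 genes (vertical axes, linear, each from 0) in NC, Activin and Activin+HGF, with 1 symbol per library and replicate, and horizontal lines and bars for the mean and SD of 3 libraries; FOXA2 and PROX1 are shown as points alone. The 3 NC libraries of GATA6, at 1.2 to 1.59 FPKM, lie below all 6 treated ones, and Activin+HGF replicate 1 is the low point of FOXA3 at 0.64.

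GATA6 was the gene that rose. Its FPKM was 1.55, 1.2 and 1.59 in NC, 3.82, 3.97 and 3.36 in Activin and 1.89, 3.16 and 3.62 in Activin+HGF, from 349 to 1161 counts. Every treated library was above every NC library, as held in CPM, counts scaled to the size of the library, for 42.2% of all genes, in either direction, in Activin against NC and 53.8% in Activin+HGF against NC, and the lowest treated value was that of Activin+HGF replicate 1. With activin GATA6 was 2.45-fold higher than in NC (log2 fold change 1.29, SE 0.24, 95% interval 0.76 to 1.83, adjusted p = 0.00507 by edgeR's quasi-likelihood test). It was the 1 call among the 7 genes tested (a call needs an adjusted p below 0.05 together with a change of at least 2-fold either way), where 11.4% of all genes tested were called and 6.78% were called higher. It was also the 1 gene of 7 with an adjusted p below 0.05 at any fold, against 18% of all genes. After HGF had followed activin, GATA6 was 2.43-fold above NC (log2 fold change 1.28, SE 0.24, interval 0.74 to 1.81, adjusted p = 0.00307 in edgeR), again the 1 call of 7, where 21.5% of all genes were called and 11.3% called higher. Both comparisons use the same NC libraries. Between Activin and Activin+HGF no difference passed the test: the log2 fold change was -0.01 with an interval from -0.54 to 0.51 (adjusted p = 0.976 in edgeR). It was 0.17 without Activin+HGF replicate 1 and 0.12 without Activin replicate 2. Over the 17 alternatives it lay between -0.40 and 0.17, with no call. None of the 7 genes was called in that comparison, where 8.09% of all genes were called, 3.87% higher and 4.21% lower. The call against NC was kept in all 6 fits that left out a library, with log2 fold changes of 1.16 to 1.43 for activin and 1.11 to 1.46 for activin and HGF. It depended on the scale, however. On log2(FPKM + 1), which understates the change of genes near 1 FPKM, limma gave 0.95 for activin and 0.64 for activin and HGF, and on log2(FPKM + 0.1) it gave 0.91 for activin and HGF, all below the fold threshold.

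Several RNAs lie against GATA6 in the genome. GATA6 spans chr18:22169589-22202528 on the plus strand in the coordinates of the table, and GATA6-AS1, a long noncoding RNA on the opposite strand, shares 240 exonic bases with it in GENCODE 29. GATA6-AS1 had 24, 8 and 0 counts in NC, 59, 23 and 38 in Activin, and 83, 97 and 57 in Activin+HGF. Its mean FPKM was 0.0433, 0.163 and 0.287, in each group far below that of GATA6. It passed the filter on low counts through the treated libraries, so its call in Activin+HGF against NC, lost without Activin+HGF replicate 1, is not given as support. Whether reads were counted by strand is not given in the sources used here, so reads of the shared bases cannot be told apart. The other overlapping antisense RNAs in the table, AC091588.1 and AC091588.3, held at most 12 counts in a library.

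FOXA1, the forkhead factor best known from endoderm and from hormone-responsive epithelia, lay at the edge of a call. Its FPKM was 0.29, 0.41 and 0.27 in NC, 0.56, 0.36 and 0.32 in Activin, and 0.41, 0.59 and 0.6 in Activin+HGF, from 84 to 229 counts. In CPM the 3 Activin+HGF libraries, at 2.76 to 3.51, were above all 3 NC libraries, at 1.34 to 2.08, and above all 3 Activin libraries, at 1.44 to 2.47, while those of NC and Activin overlapped. On the FPKM scale Activin+HGF replicate 1 and NC replicate 2 both stood at 0.41. Such groups without overlap were common, with 32.7% of all genes tested in Activin+HGF against Activin. Against NC the log2 fold change was 0.99996 (SE 0.33, interval 0.27 to 1.73, adjusted p = 0.0407 in edgeR), which passed the p threshold, as 31.4% of all genes tested did, and fell just short of the fold threshold of 1. It was called with RLE size factors, with only the 6 libraries compared, with DESeq2, with a correction for GC content and without Activin+HGF replicate 1, the last with 1.10 and an adjusted p of 0.0418 in edgeR. It was not called without any 1 of the other 5 libraries, where the adjusted p in edgeR was 0.052 to 0.161. With activin alone the log2 fold change was 0.27 (interval -0.45 to 1.00), and from Activin to Activin+HGF it was 0.73 (interval 0.00 to 1.45, adjusted p = 0.165 in edgeR).

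FOXA3, a hepatic and intestinal forkhead gene with the highest level of the family here, did not pass a test. Its counts were 511, 695 and 680 in NC, 548, 652 and 520 in Activin, and 113, 585 and 568 in Activin+HGF. The single low library was Activin+HGF replicate 1, with an FPKM of 0.64 against 3.11 and 3.16 in its group. The log2 fold change against NC was -0.13 with activin (interval -1.11 to 0.84) and -0.48 with activin and HGF (interval -1.46 to 0.50, adjusted p = 0.447 in edgeR). Without that library the latter was -0.06, and that against Activin changed from -0.35 to 0.08. Of the 8 genes, 5 were lowest of their group in that library by CPM and 3, among them ONECUT2, highest. FOXA2 was lowest with 0 counts and PROX1 highest with 12, both near the floor. Of 20 other liver transcription factors 11 were lowest there and 5 highest, and of 16 intestinal ones 7 and 4. The shares of all genes lowest and highest there are not given, so these counts are not read as a trait of the lists. Among 13056 genes, 8.79% were at least 2-fold lower in that library than in the others of its group, against 1.59% and 2.29% in replicates 2 and 3. Examples of low values are CEBPA with 53 counts against 579 and 615, CDX2 with an FPKM of 1.57 against 5.12 and 5.41, GATA3 with 34 counts against 186 and 169, and PDX1 with 0 counts against 122 and 114. Examples of high values are DBP with 22.9 FPKM against 18.1 and 15.3 and SPDEF with 1.32 against 0.65 and 0.53. The part of that library's composition in the values of FOXA3 was not tested.

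FOXA2, the family member most used as a marker of definitive endoderm, was close to the limit of detection. It had 0, 4 and 0 counts in NC, 17, 16 and 0 in Activin and 0, 8 and 28 in Activin+HGF, which is an FPKM of at most 0.13. Each group held at least 1 library with 0 counts, so the groups overlapped, and its fitted fold changes, which depend on edgeR's prior count, are not read as sizes. Where a library had 0 counts, 3 counts, or 0.0373 to 0.0551 CPM, could have gone unseen, for counting error alone. Among all values from 1 to 40 counts in the table, 35% were multiples of 4, against 25% if spread evenly, so that a low count need not stand for as many fragments. With edgeR the adjusted p was 0.356, 0.955 and 0.258 for activin against NC, Activin+HGF against Activin and Activin+HGF against NC.

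The HNF4 genes did not pass a test either. HNF4A had an FPKM of 0.42, 0.36 and 0.3 in NC, 0.62, 0.88 and 0.42 in Activin, and 0.37, 0.38 and 0.22 in Activin+HGF. The highest value was that of Activin replicate 2, and the lowest Activin library matched the highest NC library at 0.42. The log2 fold change was 0.78 with activin (SE 0.37, interval -0.04 to 1.61, adjusted p = 0.183 in edgeR), -0.63 from Activin to Activin+HGF (adjusted p = 0.284) and 0.15 for Activin+HGF against NC (interval -0.68 to 0.98, adjusted p = 0.793). Leaving out 1 library at a time moved the first between 0.38 and 1.07. HNF4G had 0.51, 0.34 and 0.29 FPKM in NC, 0.27, 0.36 and 0.2 in Activin, and 0.12, 0.34 and 0.29 in Activin+HGF. All 3 groups overlapped, with log2 fold changes against NC of -0.51 (interval -1.47 to 0.46) and -0.34 (interval -1.30 to 0.62). These intervals leave room for changes of 2-fold and more in both genes, except for HNF4A in Activin+HGF against NC, which reached 1.97-fold. The data thus do not show that the HNF4 levels stayed the same.

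In summed counts of a group, ONECUT2 was the highest of the 8 genes and PROX1 the lowest. The longest transcript of ONECUT2 has 16121 bases, and per length its mean lay below those of FOXA3 and GATA6 in every group. ONECUT2 had 1.23, 0.9 and 1.06 FPKM in NC, 1.73, 0.55 and 1.36 in Activin, and 1.4, 1.06 and 0.7 in Activin+HGF. The low Activin value was that of Activin replicate 2. By the G and C of the longest transcript, ONECUT2 with 41.5% is in the class that was low in that library, as is HNF4G with 35.9%, whose value there was the highest of the 3 Activin libraries. HNF4A with 52.8% lies between the classes compared, and the part of G and C in these values was not tested. The groups overlapped throughout, with log2 fold changes of 0.08 (interval -0.74 to 0.90), 0.24 (-0.58 to 1.06) and 0.32 (-0.50 to 1.14) for activin against NC, Activin+HGF against Activin and Activin+HGF against NC. PROX1 had 0 counts in 8 of the 9 libraries and 12 counts, an FPKM of 0.02, in Activin+HGF replicate 1. Its antisense neighbour PROX1-AS1 held 4 counts in NC replicate 2 and 0 elsewhere, and HNF4A-AS1, LINC00261 and HNF4GP1, noncoding genes named for or lying near other members, were not analysed here.

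**Figure D2:**
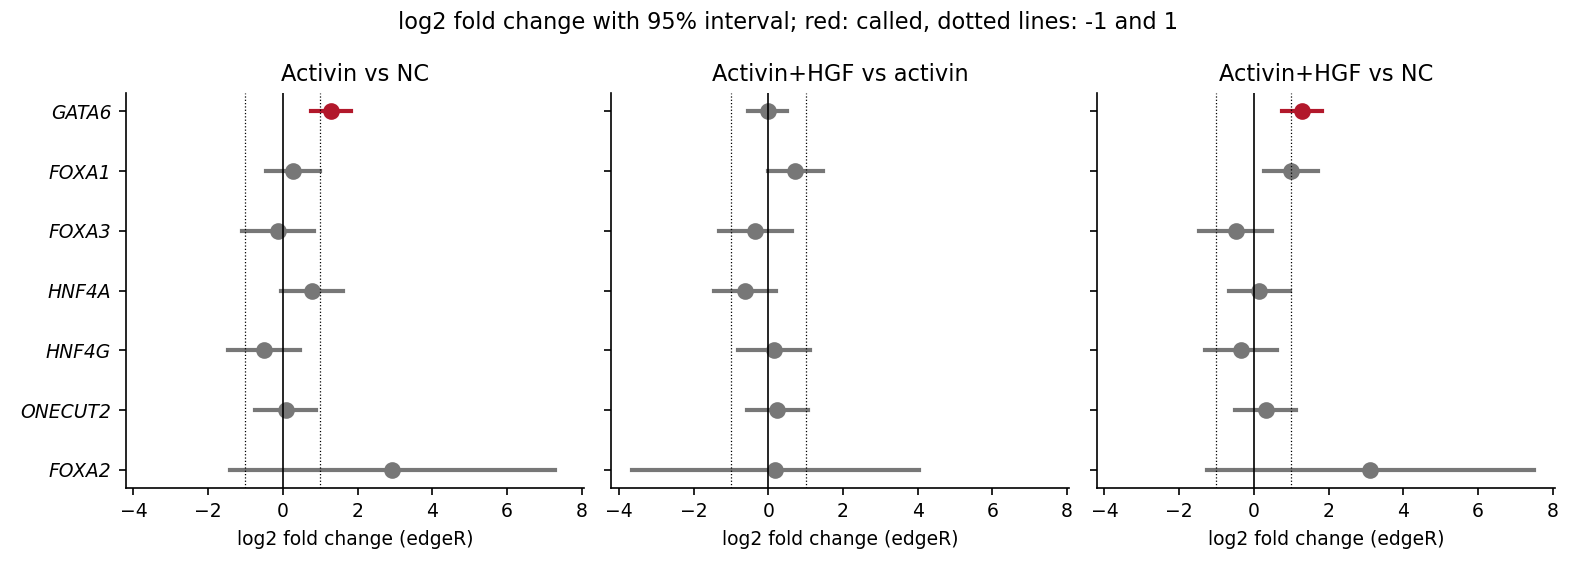
Log2 fold change from edgeR (horizontal axis) with its 95% interval for the 7 genes tested, in panels for Activin against NC, Activin+HGF against Activin and Activin+HGF against NC, with red for genes called and dotted lines at -1 and 1. GATA6 is red against NC in both treated groups at 1.29 and 1.28, FOXA1 touches the line at 1 in the last panel, and the intervals of FOXA2 are the widest.

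Over the 7 genes tested the median log2 fold change was 0.27 for activin against NC, 0.16 for Activin+HGF against Activin and 0.32 for Activin+HGF against NC, beside 0.02, -0.04 and -0.04 over all genes tested. The 7 include FOXA2, which passed the filter on low counts through the treated libraries. Its fitted values of 2.93, 0.19 and 3.12, not read as sizes, lie above these medians, which would be lower without it. The medians are thus a description and no support for a shift of the genes. The summed FPKM of the 8 genes in a library was 7.07 to 7.61 in NC, 8.88 to 10.6 in Activin and 4.85 to 8.72 in Activin+HGF, the last with Activin+HGF replicate 1 at the low end. The sum is carried by GATA6 and FOXA3. With library totals in place of TMM scaling, the median log2 fold change of all genes moved by -0.34 in Activin+HGF against Activin and by -0.27 against NC, and the share of calls that were higher went from 47.9% to 15% and from 52.6% to 33.4%. GATA6 was still called against NC in Activin+HGF on that scaling, with a log2 fold change of 1.03. The 2 units of the table agreed for these genes: at equal depth, the counts per FPKM of the 6 genes above 0.2 FPKM differed between libraries by a factor of 1.03 to 1.04.

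**Figure D3:**
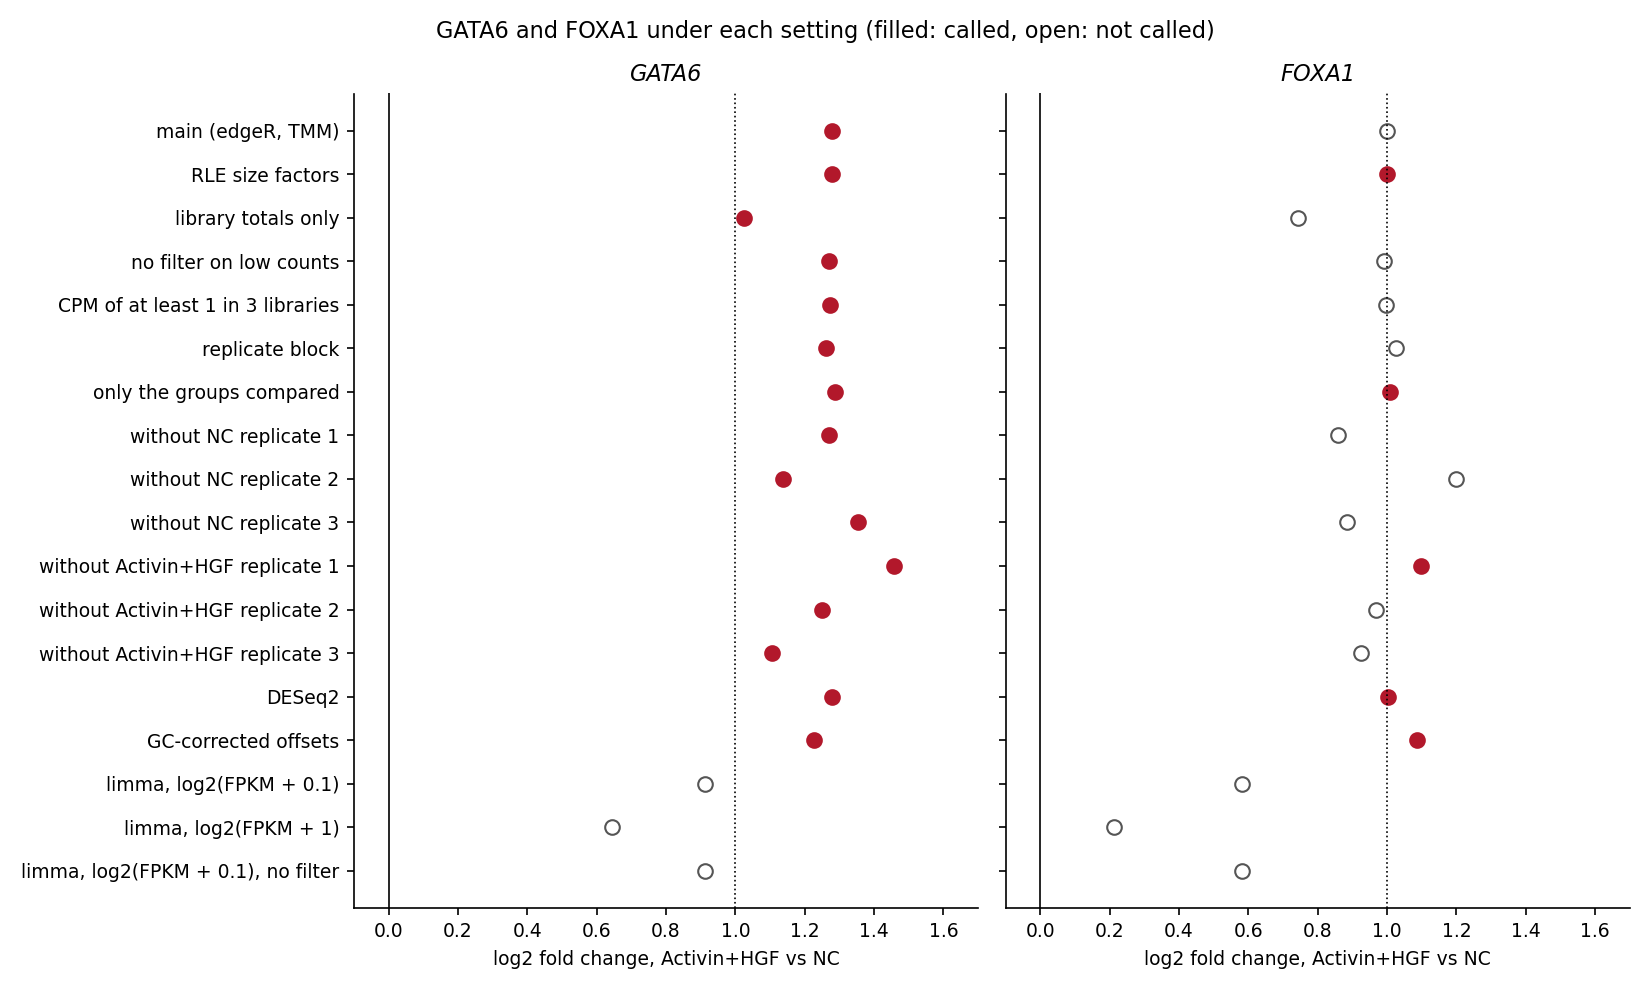
Log2 fold change of GATA6 and FOXA1 in Activin+HGF against NC (horizontal axis) under the main test and each alternative (vertical axis), filled where called and open where not, with a dotted line at 1. GATA6 is called everywhere but in the 3 limma fits on FPKM, whereas the FOXA1 points lie on both sides of the line, from 0.21 to 1.20.

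For each gene tested, the genes whose log2 CPM was most like it over the 9 libraries were found by Pearson's r among 13795 genes with a mean of at least 1 CPM. These values are a description, since the libraries share 3 groups and the depth and composition of each library. GATA6 was most like ANAPC16 (r = 0.988) and LCK (0.985), and FOXA1 most like INSL3 (0.941), MZF1 (0.932) and TTLL1 (0.931). FOXA3 was most like ZBTB9 (0.993), RASD2 (0.992) and BORCS6 (0.987). HNF4A was most like LRP1 (0.953), FSD1 (0.913) and NUAK1 (0.912), and HNF4G most like RASSF4 (0.951), NFS1 (0.943) and CLPB (0.934). ONECUT2 was most like KLF12 (0.986), RLIM (0.973) and RNF169 (0.971), and FOXA2, near 0 throughout, most like ZNF843 (0.905), EPHB2 (0.903) and PRKAB1 (0.901). None of the 8 genes was among the 3 most alike of another, but FOXA2 and PROX1, under 1 CPM, were not among the genes searched.

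Calls were also found among the closest relatives of these genes. Of 8 other GATA, ONECUT and PROX genes, 7 were in the table and 6 were tested, 1 of them called lower with activin, 2 called higher from Activin to Activin+HGF and 1 called higher in Activin+HGF than in NC, where 4.62%, 3.87% and 11.3% of all genes were. GATA2, the haematopoietic and endothelial GATA factor, was the gene called lower, with 8.97, 8.28 and 7.98 FPKM in NC and 2.84, 4.78 and 2.28 in Activin (log2 fold change -1.39, SE 0.30, adjusted p = 0.00962 in edgeR). In Activin+HGF it had 4.19, 5.8 and 5.99, above Activin by a log2 fold change of 1.02 (adjusted p = 0.0461 in edgeR), which was not called without Activin+HGF replicate 1 (1.11, adjusted p = 0.0707 in edgeR). Thus GATA2 was lower and GATA6 higher with activin, and NC held more GATA2 than GATA6 per length in every library. GATA5, which also acts in endoderm, had 0 counts in all NC and Activin libraries and 26, 16 and 12 in Activin+HGF, at least 6.10-fold and 6.23-fold above the floor of 3 counts of these groups. It passed the filter on low counts only through Activin+HGF, so its calls in both comparisons, which the counts above include, are no support, and they were lost without Activin+HGF replicate 1. The call of GATA5 against Activin was also lost without Activin replicate 2 (adjusted p = 0.0599 in edgeR). ONECUT1 was called lower in Activin+HGF than in Activin without Activin replicate 2 (log2 fold change -1.65, adjusted p = 0.0168 in edgeR), but not with all libraries (-1.34, adjusted p = 0.07). ONECUT3, with the highest mean of the list over the 9 libraries though below GATA2 in NC, had 6.44 ± 0.0656, 8.65 ± 0.2 and 9.67 ± 2.73 FPKM and so exceeded ONECUT2 in every library. Its log2 fold change in Activin+HGF against NC was 0.86 (adjusted p = 0.00502 in edgeR), below the fold threshold, and 1.00 and called without Activin+HGF replicate 1.

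Among 20 other liver transcription factors, 16 were tested, and with activin 3 were called higher and 1 lower, where 6.78% and 4.62% of all genes were. CEBPB, a leucine zipper factor of the acute phase response, had 9.54, 13.7 and 12.8 FPKM in NC, 66.4, 87.3 and 67.3 in Activin, and 53.5, 102 and 114 in Activin+HGF. It was 5.85-fold higher with activin (log2 fold change 2.55, SE 0.28, adjusted p = 0.000315 in edgeR) and 8.97-fold higher with activin and HGF. XBP1, a factor of the unfolded protein response, had 12.3, 11.1 and 13.6 FPKM in NC and 40.1, 49.7 and 52.3 in Activin, a 3.66-fold difference (adjusted p = 0.000194 in edgeR). DBP, a circadian factor, went from 3.95, 4.25 and 3.82 FPKM to 10.1, 13.5 and 9.49 and then to 22.9, 18.1 and 15.3, and it was called in all 3 comparisons. NR2F1, an orphan nuclear receptor, was the gene called lower with activin, at 11.8, 11.4 and 10.4 FPKM against 21.1, 21 and 24.8. From Activin to Activin+HGF 2 were called higher, DBP and TBX3 (log2 fold change 1.03, adjusted p = 0.0411 in edgeR), where 3.87% of all genes were, and of which DBP was not without Activin+HGF replicate 1 (0.88). Against NC, Activin+HGF had 3 called higher, CEBPB, DBP and XBP1, and 2 lower, PPARA and NR5A2, where 11.3% and 10.2% of all genes were. Without Activin+HGF replicate 1, TBX3 was called there too (1.04). The lower calls were not kept without Activin+HGF replicate 1, where the adjusted p in edgeR was 0.149 and 0.0938, and PPARA varied among NC libraries from 0.61 to 2.26 FPKM. The median log2 fold changes of the list were 0.39, 0.08 and 0.26, beside 0.02, -0.04 and -0.04 over all genes tested.

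**Figure D4:**
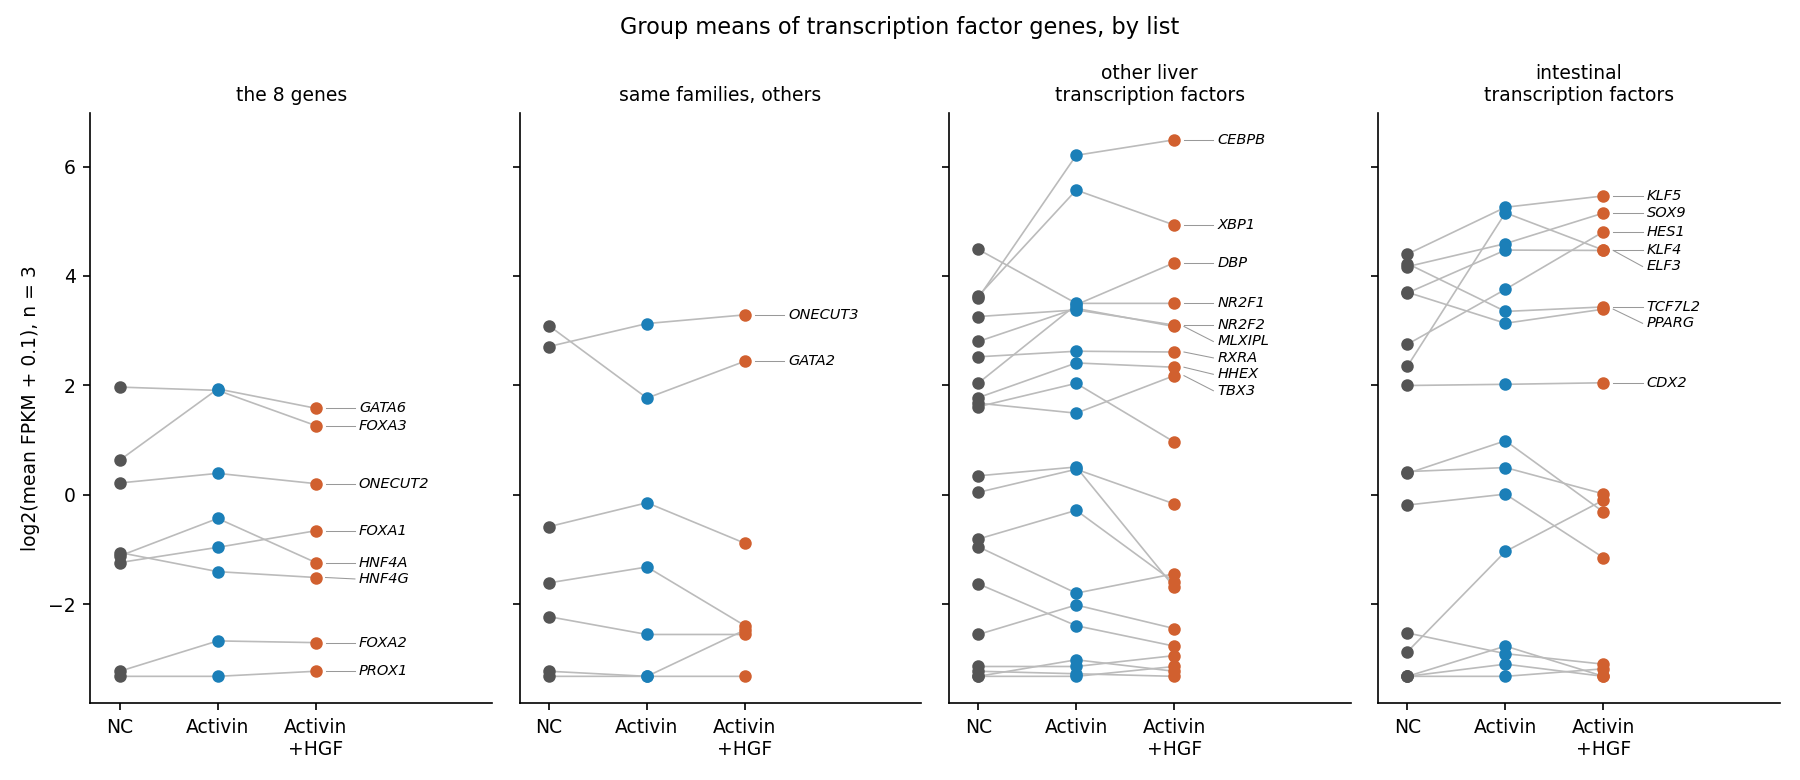
Group means of 3 libraries as log2(mean FPKM + 0.1) (vertical axis) in NC, Activin and Activin+HGF for the 8 genes, other members of their families, other liver transcription factors and intestinal transcription factors, with a line for each gene and names for the 8 genes and for others with at least 2 FPKM in Activin+HGF. The 8 genes lie at or below 2 on this scale, and the topmost points in Activin+HGF are those of CEBPB, with 89.7 FPKM, and KLF5, with 44.

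Intestinal transcription factors gave the background of the cell's own lineage. Of 17 such genes, 12 were tested, and 1 was called higher with activin, where 6.78% of all genes were. From Activin to Activin+HGF 1 was higher and 1 lower, where 3.87% and 4.21% were, and in Activin+HGF against NC 6 were higher and 0 lower, where 11.3% and 10.2% were. KLF4, a factor of the differentiated epithelium, was called with activin at 35.6, 37.1 and 33.6 FPKM against 6.19, 6.04 and 2.77 (log2 fold change 2.75, SE 0.34, adjusted p = 0.000536 in edgeR). HES1, a target of Notch, rose from 13, 15.7 and 11.6 FPKM in Activin to 26, 30 and 27.9 in Activin+HGF (log2 fold change 1.42, adjusted p = 0.00488 in edgeR), and GFI1, a factor of secretory cells, fell by 1.05 on the log2 scale (adjusted p = 0.0273 in edgeR), a call lost without Activin+HGF replicate 1 (-0.94) and without Activin replicate 2 (-0.995). The genes higher in Activin+HGF than in NC were SPDEF, KLF4, HES1, KLF5, SOX9 and ELF3, and all 6 were also called without Activin+HGF replicate 1. SPDEF, with 0, 0 and 19 counts in NC, passed the filter through the treated libraries, so its call is no support. KLF5, the most abundant, had 21 ± 2.49, 38.1 ± 3.8 and 44 ± 1.75 FPKM, and CDX2, which fixes intestinal identity, had 3.89 ± 0.371, 3.95 ± 0.59 and 4.03 ± 2.14 with no call. In every group the means of KLF5 and CDX2 exceeded those of all 8 genes. Libraries of CDX2 overlapped those of FOXA3 in each group, however, at 3.51 to 4.25 against 3.56 to 4.26 FPKM in NC.

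Of 10 genes of definitive endoderm and mesendoderm, 5 were in the table and 3 were tested. EOMES, a T-box factor of the mesendoderm, had 0.84, 1.03 and 0.94 FPKM in NC, 0.47, 0.3 and 0.71 in Activin, and 0.21, 0.34 and 0.43 in Activin+HGF. It was lower in Activin+HGF than in NC (log2 fold change -1.24, SE 0.36, adjusted p = 0.0234 in edgeR, and -1.06 with 0.0602 without Activin+HGF replicate 1). LHX1 had group means of 0.0533 to 0.107 FPKM and no call, and MIXL1 and OTX2 were at or near 0. The receptor gene CXCR4 was listed with 0.53 to 0.86 FPKM in NC, 87.3 to 93.8 in Activin and 502 to 538 in Activin+HGF, and was called higher in all 3 comparisons. Its values differ in form from those of the rest of the table. All 6 of its treated counts were multiples of 10, which held for no other of 6523 genes with at least 1000 counts in each of these libraries, and its counts per FPKM moved 1.52-fold between libraries at equal depth, more than in nearly all of 13301 genes.

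Products of the hepatocyte, many of them targets of HNF4A and FOXA factors, were read beside the 8 genes, with no test of a link. Of 26, 24 were in the table and 14 were tested, and most of those passed the filter through counts in the treated libraries alone, so that the number called is not given as support. SERPINA1, the alpha-1-antitrypsin gene, was the one of them besides AFP with a mean FPKM of at least 1, and had 0.67, 0.84 and 0.83 in NC, 3.09, 2.27 and 2.62 in Activin, and 3.11, 2.19 and 2.31 in Activin+HGF. It was 3.19-fold higher with activin (log2 fold change 1.67, SE 0.25, adjusted p = 0.00145 in edgeR) and 4.03-fold higher with activin and HGF. The albumin gene ALB had 8, 33 and 4 counts in NC, 38, 12 and 47 in Activin, and 65, 79 and 76 in Activin+HGF, a mean CPM of 0.224, 0.444 and 1.18. TF, the transferrin gene, was called with activin at 91 to 161 counts against 30 to 38 in NC, an FPKM of at most 0.08. The apolipoprotein gene APOB had 0 counts in NC, 22 to 65 in Activin and 15 to 27 in Activin+HGF, at least 11.5-fold and 6.26-fold above the floor. FGG, FGA and APOA2 had at most 62 counts in a library, and APOA1 and AHSG at most 89. ALB, APOA1 and AHSG passed the filter through the treated libraries, and their calls in Activin+HGF against NC were lost without Activin+HGF replicate 1. TTR, a defining hepatocyte product, had 0 counts in 8 of 9 libraries, and the summed FPKM of 8 hepatocyte markers was 0.86 to 1.03 in NC, 2.57 to 3.5 in Activin and 3.4 to 4.4 in Activin+HGF. Most of that sum was SERPINA1, with means of 0.78, 2.66 and 2.54, while the median marker had a mean of 0.0317, 0.08 and 0.152. AFP, alpha-fetoprotein, was listed with an FPKM of 2, 3 and 2 in NC, 2.02, 5 and 4 in Activin, and 85, 145 and 147 in Activin+HGF, and was called higher in Activin+HGF than in both other groups. Its FPKM was a whole number in 8 libraries, where no other gene had whole values of at least 1 in more than 3. Its Activin+HGF counts of 1900, 2700 and 2800 were all multiples of 100, as for no other of 7112 genes, and its counts per FPKM moved 3-fold between libraries at equal depth, so the size of its change cannot be taken from this table alone.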

How the data were processed

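RNA of HCT116 cells was sequenced after depletion of ribosomal RNA, in 3 libraries each of NC, Activin and Activin+HGF, grouped by the labels. The authors deposited raw read counts per gene and, beside them, FPKM values, which are scaled by library size and by the length of the gene. The submitters' processing notes name cutadapt 1.9, HISAT2 2.0.4 and StringTie 1.3.4d, while the genome build, the counting program and its use of strand are not given in the sources used here. Gene coordinates equalled those of GENCODE 29 (GRCh38) for 60.2% of the 32930 shared identifiers. All per-library columns were used (0 left out), and no row lacked a gene.

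Counts were tested with edgeR 4.0.16 in R 4.3.3 (filterByExpr, TMM scaling, glmQLFit and glmQLFTest on all 9 libraries with a mean per group). P-values were adjusted by Benjamini-Hochberg over the 20988 genes tested, and a gene was called at an adjusted p below 0.05 with a log2 fold change of 1 or more in size. Standard errors and 95% intervals are approximate, since they were derived from F. CPM are counts scaled to the TMM-adjusted size of the library. FPKM were used for levels only, and with limma 3.58.1 on log2(FPKM + 0.1) as an alternative. Other tools were DESeq2 1.42.0, matplotlib 3.10.9, pandas 2.3.3, numpy 2.4.6 and Python 3.11.15. Sequences are from RefSeq.

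The 8 genes, the gene lists and the tests were chosen with earlier results of these data known. Named from each list were up to 4 called genes per comparison with the largest fold changes and the gene with the highest mean FPKM, every gene of a list of at most 5, and the 3 genes most like each gene tested. Some genes and a motif are not reported here. CEBPA, GATA3, PDX1, CDX2, SOX9, ELF3, ONECUT1, LHX1, MIXL1, OTX2, TTR, VIL1, LGALS4, PTPRC and CD3E were named outside this rule, after their values were seen.

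The test was first tried on simulated counts with known changes. A library held 57453977 to 77016167 counts, and 3 counts, taken as the floor, came to 0.0373 to 0.0551 CPM. The alternatives were other scalings, filters, tests and units, only the groups compared, the replicate number as a block, no fold threshold and each library left out. The correction for GC content and the counts per list under other settings were chosen after seeing the data.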

Additional observations from a re-analysis of the deposited data

How the results depend on the processing

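FOXA2 and PROX1 had 0 counts in several libraries, and every test rested on 3 libraries a group. What limited the tests of each member was not tested. The causes of the shifts below were not tested. The call of GATA6 against NC was lost only in limma on log2(FPKM + 1), which called 0 of the members in both comparisons, and, for Activin+HGF, in limma on log2(FPKM + 0.1) with and without a filter, which called 0. In Activin+HGF against NC 2 members, GATA6 and FOXA1, were called with RLE size factors, only the groups compared, DESeq2, no fold threshold, the GC correction and without Activin+HGF replicate 1, so leaving out a library gave 1 to 2. Leaving out a library gave 599 to 976 genes called lower with activin against 970, and 230 to 1226 higher and 376 to 1192 lower in Activin+HGF against Activin, against 813 and 884, moved by over 1.5 times by each Activin library and, for the higher genes, by Activin+HGF replicate 1 (475). As TPM, 5 members instead of 3 had a mean level of at least 1 in Activin. Of all genes, limma on log2(FPKM + 1) called 708 higher and 491 lower with activin, 212 and 487 in Activin+HGF against Activin, and 822 and 1416 in Activin+HGF against NC. On log2(FPKM + 0.1) it called 339 and 1521 in Activin+HGF against Activin and 1291 higher against NC, and with no filter 298 and 1357 higher. In Activin+HGF against Activin, library totals gave 319 higher and 1805 lower, only the groups compared 353 and 324, and DESeq2 1484 lower. With no fold threshold 1766 genes were lower with activin and 1555 higher in Activin+HGF against Activin. All changes of sign were in log2 fold changes that were not called. In Activin+HGF against Activin these were ONECUT2 (-0.18 with library totals, -0.11 and -0.083 in limma with 0.1 and 1 added, -0.11 with no filter), FOXA2 (-0.060 with library totals, -0.065 in limma with no filter and -0.065 with the block), HNF4G (-0.12 with library totals and -0.15 in limma with no filter) and GATA6 (0.029 with the GC correction). In Activin+HGF against NC they were HNF4A (-0.13 with library totals and -0.14 in limma with no filter) and ONECUT2 (-0.049 and -0.018 in limma with 0.1 and 1 added, and -0.049 with no filter). Leaving out a library moved FOXA3 between -0.33 and 0.021 and ONECUT2 between -0.18 and 0.39 with activin. From Activin to Activin+HGF it moved ONECUT2 between -0.13 and 0.48, GATA6 between -0.19 and 0.17, FOXA2 between -1.42 and 0.77, HNF4G between -0.12 and 0.49 and FOXA3 between -0.64 and 0.076, and against NC it moved HNF4A between -0.055 and 0.39 and ONECUT2 between -0.049 and 0.56.

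The replicate numbers are shared between groups, but same-numbered libraries did not deviate together (r of -0.0606 to 0.0882 over 9 pairs), so the numbers were not taken to pair libraries. With the replicate number as a block, GATA6 stayed called against NC at 1.29 (adjusted p = 0.0124 in edgeR) with activin and 1.26 with activin and HGF, and 1279 genes were higher and 939 lower with activin, 691 and 675 in Activin+HGF against Activin, and 2224 and 1998 in Activin+HGF against NC.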
